A study of Mus musculus with 6 samples.

Results

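The genes of cytosolic DNA and RNA sensing were followed in mouse bone-marrow-derived macrophages, cells grown in culture from marrow precursors, that were kept with or without dying cells. The 10 genes, of 38124 in the deposited table, were chosen by name as sensors, adaptors, a kinase and a nuclease of these pathways: Ddx58, Ifih1, Dhx58, Mavs, Aim2, Ifi204, Zbp1, Tmem173, Tbk1 and Trex1. Exposed macrophages (n = 3 libraries) spent 24 hr with apoptotic thymocytes, which had been killed with the synthetic glucocorticoid dexamethasone. The labels state a ratio of 1:40, and the dead cells were removed before RNA extraction. Untreated macrophages (n = 3 libraries) had no apoptotic cells. All came from wild type C57BL mice, and the labels call every library a biological replicate but do not say how many animals gave the marrow.

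Cells carry receptors for nucleic acids in the cytosol, where neither foreign DNA nor double-stranded RNA should be. RNA receptors of the RIG-I family signal through the mitochondrial adaptor MAVS, while DNA is read through cGAS and the adaptor STING (gene Tmem173) or through AIM2, which starts an inflammasome. Both adaptors use the kinase TBK1 to switch on interferon genes, and interferon in turn raises many of the receptors. The nuclease TREX1 removes cytosolic DNA, and macrophages that digest dead cells handle large amounts of nucleic acid in their lysosomes.

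The promoter windows of Ddx58, Ifih1 and Mavs are shown because the first pair were the RNA receptor genes with an entry in the promoter table and the third is the gene of their adaptor. They are RefSeq sequences on GRCm38.p6 that span 250 bases before and 50 bases after the annotated start, read 5′ to 3′ on the strand of the gene. Capitals mark a match to the core of the interferon-stimulated response element, which is GAAA, any pair of bases and GAAA, searched on both strands.
Ddx58, chr4:40239776-40240075, minus strand: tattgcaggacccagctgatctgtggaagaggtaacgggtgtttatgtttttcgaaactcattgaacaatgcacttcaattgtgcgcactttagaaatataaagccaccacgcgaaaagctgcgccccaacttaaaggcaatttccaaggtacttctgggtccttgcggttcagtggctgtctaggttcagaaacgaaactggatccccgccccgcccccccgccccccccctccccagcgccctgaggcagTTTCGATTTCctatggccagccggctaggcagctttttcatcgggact
Ifih1, chr2:62646206-62646505, minus strand: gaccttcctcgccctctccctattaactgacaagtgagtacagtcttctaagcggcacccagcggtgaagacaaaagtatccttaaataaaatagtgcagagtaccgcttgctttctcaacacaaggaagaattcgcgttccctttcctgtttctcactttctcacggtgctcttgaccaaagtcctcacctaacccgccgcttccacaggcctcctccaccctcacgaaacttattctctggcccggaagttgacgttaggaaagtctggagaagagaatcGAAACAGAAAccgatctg
Mavs, chr2:131233813-131234112, plus strand: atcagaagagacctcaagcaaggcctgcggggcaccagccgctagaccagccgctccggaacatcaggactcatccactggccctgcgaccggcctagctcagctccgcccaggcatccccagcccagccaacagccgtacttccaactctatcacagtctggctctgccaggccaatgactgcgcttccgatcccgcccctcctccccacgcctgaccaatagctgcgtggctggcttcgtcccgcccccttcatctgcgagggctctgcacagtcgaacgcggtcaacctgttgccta
The match in Ddx58 begins at base 3 after the start and is on the opposite strand, and the match in Ifih1 begins at base 33. Of the 10 genes, 6 had an entry in the promoter table, and 2 of the 6 held a match. The window of Aim2 and both windows of Trex1, genes that also fell, held none, nor did those of Mavs and Tbk1. In the table as a whole, 3.44% of 32851 promoters held a match. Another motif, TTCNNNGAA, the core bound by STAT dimers, had 0 matches in the windows of these 6 genes and occurred in 8.30% of all promoters. A match is a run of letters and not a measured binding site.

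Expression was deposited as RPKM, in which read numbers are divided by gene length and library depth, which allows levels to be compared between genes. The depth recovered from these values was about 22782000 to 25933000 mapped reads in exposed and 19315000 to 23907000 in untreated libraries. All 8 macrophage markers passed the expression filter described below, but their levels differed between the groups. In exposed libraries 6 of the 8 lay below every untreated library and Lyz2 lay above. Fcgr1, an IgG receptor gene, averaged 7.43 RPKM in exposed and 52.7 RPKM in untreated libraries, Cd14 had 44.6 to 54.6 RPKM in exposed and 194 to 208 RPKM in untreated libraries, and Itgam averaged 33.1 RPKM in exposed and 119 RPKM in untreated libraries. The difference was smaller for Csf1r (359 RPKM in exposed and 536 RPKM in untreated libraries), Cd68 (1140 and 1270 RPKM) and Emr1 (309 and 338 RPKM). Lyz2, the lysozyme gene, averaged 19400 RPKM in exposed and 13400 RPKM in untreated libraries. The labelled cell type was also checked against 16 thymocyte markers, of which 10 were above 0 in exposed and 9 in untreated libraries. Their summed level was 2.23 to 2.86 RPKM in exposed and 5.45 to 5.76 RPKM in untreated libraries. Most of that sum was Cd4, which averaged 2.14 RPKM in exposed and 4.32 RPKM in untreated libraries. Without Cd4 and Lat, the sums of the other 14 overlapped, at 0.149 to 0.235 RPKM in exposed and 0.205 to 0.312 RPKM in untreated libraries. Cd3e, Cd8b1, Ptcra, Rag2 and Themis were at 0 in all 6 libraries. Of 5 neutrophil markers the summed level was 0.987 to 1.40 RPKM in exposed and 0.0755 to 0.116 RPKM in untreated libraries. Most of the exposed sum was Camp and Ltf, while Mpo averaged 0.00855 RPKM in exposed and 0.0246 RPKM in untreated libraries. Of 5 erythroid markers the sum was 0.923 to 1.48 and 0 to 0.0515 RPKM in these groups. The sums of B cell, dendritic cell and fibroblast markers were lower in exposed libraries. They were 0.136 to 0.195, 0.0235 to 0.0792 and 0.969 to 1.17 RPKM there. In untreated libraries they were 0.434 to 0.596, 0.103 to 0.176 and 1.3 to 1.44 RPKM. The part of these marker levels in the results below was not tested.

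Of the 10 sensing genes, 8 were lower in exposed macrophages, Mavs was higher and Tbk1 did not pass the test (limma on log2(RPKM + 1), Benjamini-Hochberg adjusted p under 0.05 over 10173 tested genes). Among the 8, Zbp1 entered the test only through its level in untreated libraries. The background is wide: 46.0% of all tested genes were lower and 18.8% were higher. The median log2 change was -0.71 for the 10 genes and -0.13 for all tested genes. In exposed against untreated libraries the values did not overlap for 8 genes in the lower direction and 1 in the higher direction, while 49.1% and 20.4% of all tested genes were apart in these directions. With 3 libraries a group, the exact two-sided permutation test cannot give a p below 0.1, and it gave 0.1 for each of these 9 genes. Because RNA was taken from whole cultures, fewer cells of a type and less RNA per cell cannot be told apart.

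**Figure D1:**
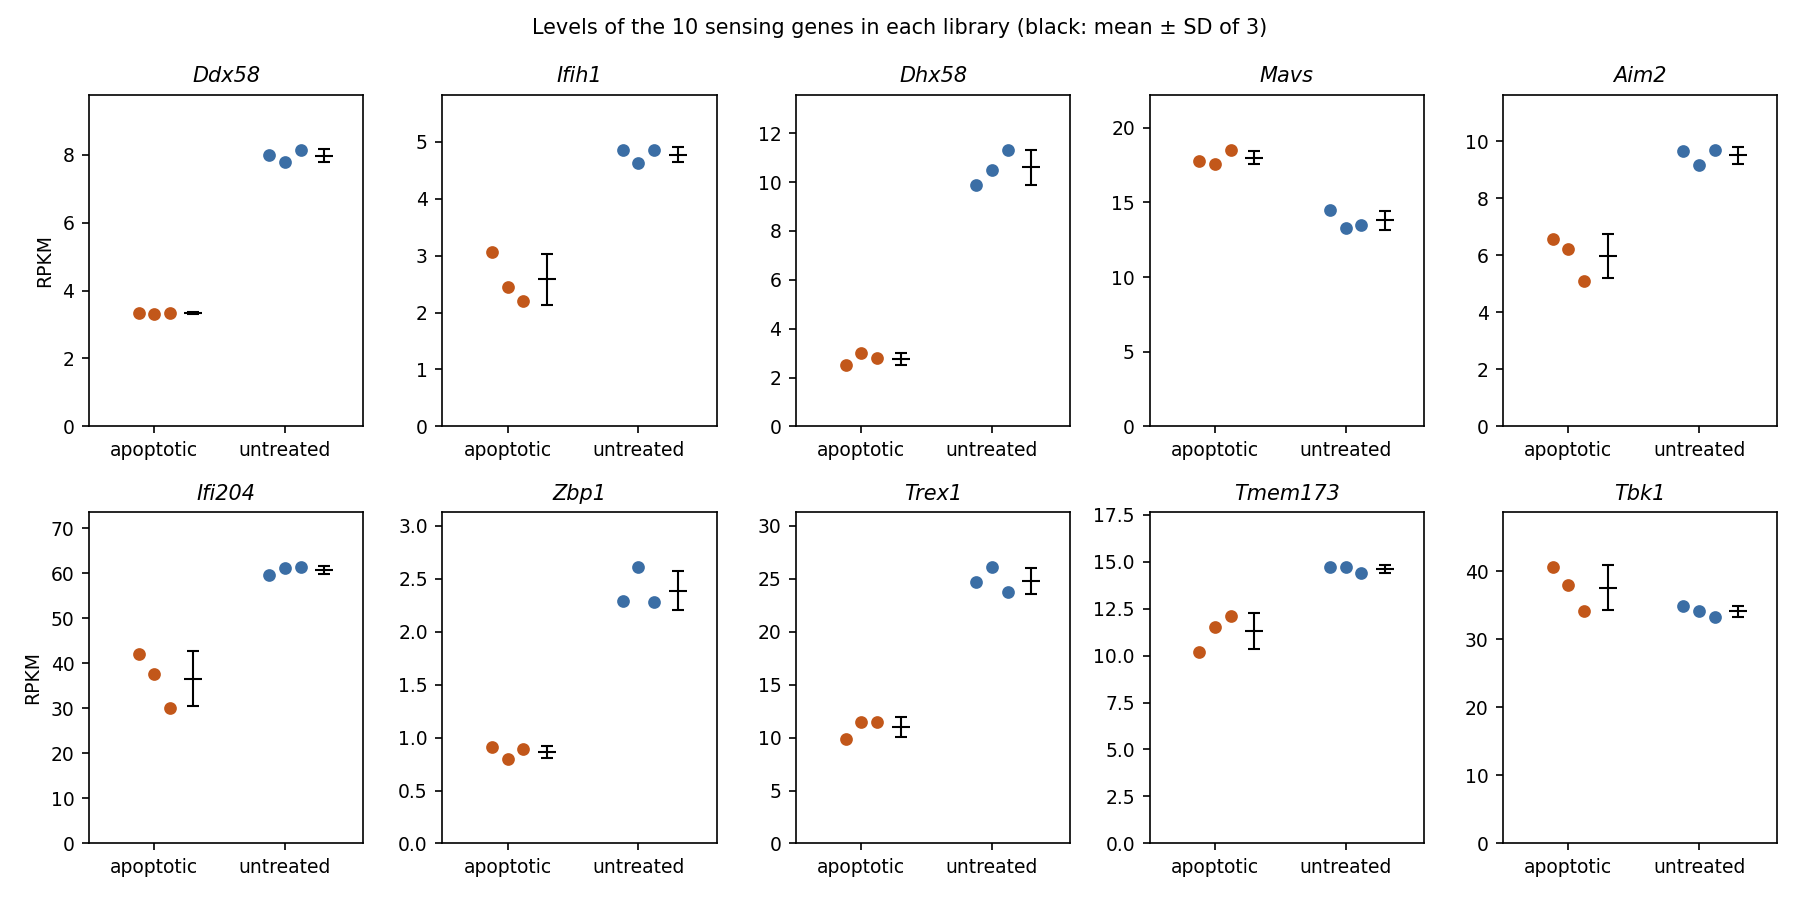
Level of each sensing gene in RPKM (vertical axes, from 0), with 1 point per library, exposed libraries (marked apoptotic) on the left and untreated libraries on the right, and black marks for the mean ± SD of 3. Exposed points lie below all untreated points in 8 panels, above them in the Mavs panel, and overlap with them in the Tbk1 panel.

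The 3 RNA receptors of the RIG-I family all fell. Dhx58 (ENSMUSG00000017830, chromosome 11, 100694884 to 100704271), which encodes LGP2, a family member that lacks the signalling domains and modulates the other members, had 2.51, 2.99 and 2.80 RPKM in exposed libraries, against 9.87, 10.5 and 11.3 RPKM in untreated libraries. Its level was thus low in every exposed library. The mean was 3.82-fold lower (log2 change -1.62, SE 0.0677, adjusted p = 6.05e-08), and 1.85% of all tested genes had a more negative log2 change. These values rest on 213 to 223 reads in exposed and 624 to 855 reads in untreated libraries.

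Ddx58 (ENSMUSG00000040296, chromosome 4, 40203773 to 40239828) encodes RIG-I, the receptor for RNA ends with a triphosphate. It had 3.34, 3.31 and 3.35 RPKM in exposed libraries, against 8.0, 7.77 and 8.13 RPKM in untreated libraries. The exposed libraries were nearly identical for this gene. It was 2.39-fold lower (log2 change -1.05, SE 0.0470, adjusted p = 9.20e-08). Ifih1 (ENSMUSG00000026896, chromosome 2, 62595798 to 62646255) encodes MDA5, the receptor for long double-stranded RNA. It had 3.07, 2.45 and 2.20 RPKM in exposed libraries, against 4.85, 4.63 and 4.85 RPKM in untreated libraries. Exposed libraries were low but differed among themselves, with a coefficient of variation of 17.4%, the highest of the 10 genes, against 2.69% in untreated libraries. The fall of Ifih1 was 1.85-fold (log2 change -0.70, SE 0.0847, adjusted p = 8.89e-05).

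Mavs (ENSMUSG00000037523, chromosome 2, 131234063 to 131248025), the adaptor on which RIG-I and MDA5 converge, moved the other way. It had 17.8, 17.6 and 18.5 RPKM in exposed libraries, against 14.5, 13.3 and 13.5 RPKM in untreated libraries. Every exposed library was above every untreated one. The rise was small, 1.30-fold (log2 change 0.36, SE 0.0483, adjusted p = 0.000176), and 90.8% of all tested genes had a lower log2 change.

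The receptors thus stood in another proportion to their adaptor. The summed RPKM of Ddx58, Ifih1 and Dhx58 divided by the RPKM of Mavs was 0.501, 0.496 and 0.453 in exposed libraries, against 1.56, 1.72 and 1.80 in untreated libraries. Mavs RNA exceeded the receptor sum in every exposed library and was below it in every untreated library. Within the family, Dhx58 made up 31.9% ± 3.32 of the summed RPKM in exposed and 45.3% ± 1.67 in untreated libraries (SD, n = 3 each). The share of Ifih1 was 29.6% ± 4.28 in exposed and 20.5% ± 0.753 in untreated libraries, and that of Ddx58 was 38.4% ± 1.47 and 34.2% ± 0.920 in the same groups. For the ratio and each share the groups did not overlap (exact two-sided permutation p = 0.1, the smallest possible with n = 3 a group).

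**Figure D2:**
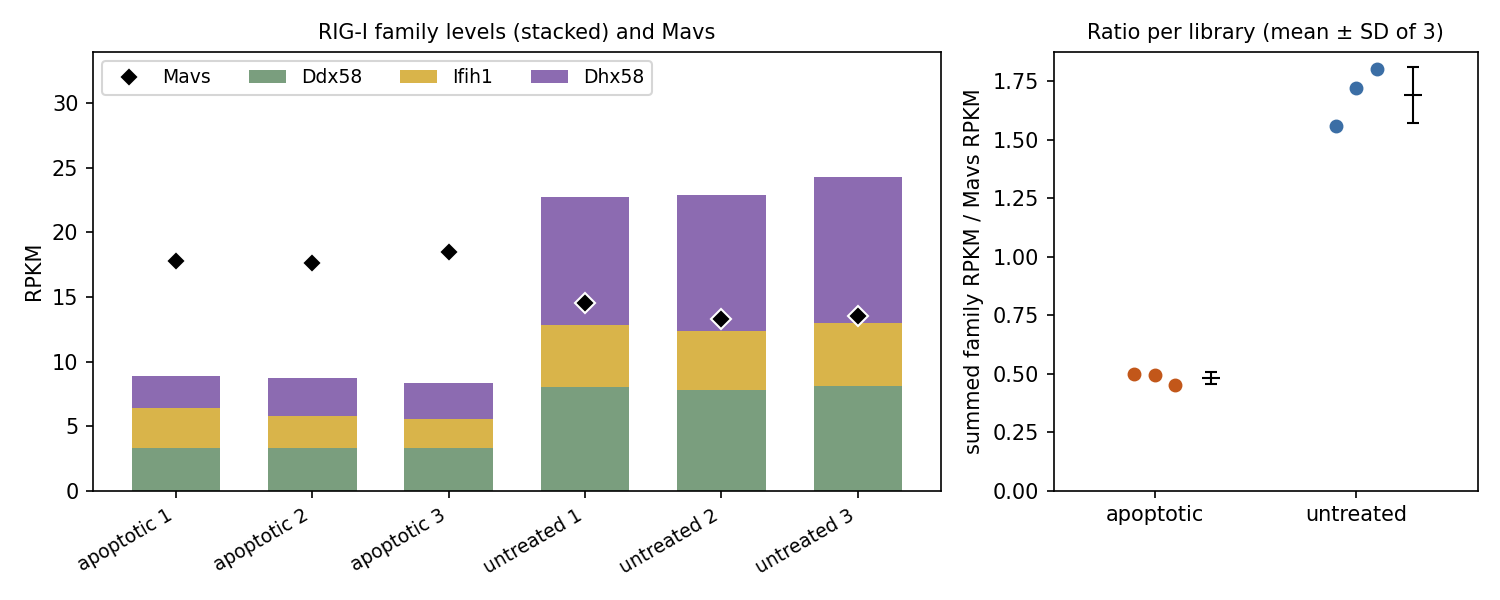
Left, levels in RPKM of the 3 RIG-I family genes stacked per library, with diamonds for Mavs and the exposed libraries (marked apoptotic) first. Right, the summed family RPKM divided by Mavs RPKM per library with mean ± SD of 3, which is 0.453 to 0.501 in exposed and 1.56 to 1.80 in untreated libraries.

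Among the 10 genes, those of sensors for DNA or Z-form nucleic acid fell as well. Zbp1 (ENSMUSG00000027514, chromosome 2, 173206612 to 173218923), a sensor of left-handed Z-form nucleic acid that can engage the kinase RIPK3, was the lowest of the 10. Its level was 0.907, 0.796 and 0.890 RPKM in exposed libraries, against 2.29, 2.61 and 2.28 RPKM in untreated libraries. It rests on 64 to 83 reads in exposed and 156 to 220 reads in untreated libraries. It was 2.77-fold lower by the means (log2 change -0.86, SE 0.0630, adjusted p = 2.70e-06). Zbp1 reached the filter of 1 RPKM in the untreated libraries alone, so it could be tested only because that group was high, and the log2 scale with 1 added understates its fold.

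Aim2 (ENSMUSG00000037860, chromosome 1, 173350879 to 173466040), the DNA sensor of an inflammasome, had 6.58, 6.23 and 5.09 RPKM in exposed libraries, against 9.66, 9.16 and 9.68 RPKM in untreated libraries. All exposed values were below the untreated range. It was 1.59-fold lower (log2 change -0.60, SE 0.0790, adjusted p = 0.000156). Ifi204 (ENSMUSG00000073489, chromosome 1, 173747293 to 173766876), a mouse relative of the human DNA sensor IFI16 in the same PYHIN gene cluster, had 42.1, 37.6 and 30.1 RPKM in exposed libraries, against 59.6, 61.2 and 61.3 RPKM in untreated libraries. Exposed libraries were lower and spread more widely. The fall was 1.66-fold (log2 change -0.73, SE 0.101, adjusted p = 0.000214). Stretches of 75 bases, a length chosen here, were compared between GENCODE M21 transcripts. Of those in Ifi204, 13.2% also occur in other genes, chiefly Ifi211, Mndal and Ifi207. How such reads were assigned is not given in the sources used here, so its value is uncertain by an unknown amount. Aim2, Ddx58, Ifih1, Dhx58, Zbp1, Mavs and Tmem173 shared 0%.

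Tmem173 (ENSMUSG00000024349, chromosome 18, 35733678 to 35740554), the gene of STING, had 10.2, 11.5 and 12.1 RPKM in exposed libraries, against 14.7, 14.7 and 14.4 RPKM in untreated libraries. The groups were apart, but the fall was the smallest of the 8, 1.30-fold (log2 change -0.35, SE 0.0613, adjusted p = 0.000905). Relative to the median tested gene the log2 change was -0.22, and 25.5% of tested genes had a more negative one. The kinase gene Tbk1 (ENSMUSG00000020115, chromosome 10, 121546455 to 121586794), which acts downstream of STING and MAVS, had 40.6, 38.0 and 34.1 RPKM in exposed libraries, against 34.9, 34.1 and 33.3 RPKM in untreated libraries. The lowest exposed library lay inside the untreated range. The log2 change of Tbk1 was 0.13 with a 95% interval of -0.01 to 0.27 (adjusted p = 0.0913). It passed as higher without exposed replicate 3 (log2 change 0.20, adjusted p = 0.00426) and after median-of-ratios scaling (0.30, adjusted p = 0.00185), which moves the median tested gene to 0.02. Under that scaling the other 9 calls stood, with 2 of the 10 genes higher and 8 lower, while 31.9% of all tested genes were higher and 27.9% lower.

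Trex1 (ENSMUSG00000049734, chromosome 9, 109057933 to 109060338), the main exonuclease for cytosolic DNA, had 9.86, 11.5 and 11.5 RPKM in exposed libraries, against 24.7, 26.1 and 23.8 RPKM in untreated libraries. The highest exposed library was well below the lowest untreated one. The fall was 2.27-fold (log2 change -1.11, SE 0.0657, adjusted p = 6.18e-07). In GENCODE M21 all 1147 exon bases of Trex1 also belong to the longer gene Atrip on the same strand, and how the authors assigned such reads is not given in the sources used here, so the level is uncertain. Atrip itself had 2.04, 2.42 and 2.25 RPKM in exposed libraries, against 2.27, 2.33 and 2.43 RPKM in untreated libraries, and did not pass (log2 change -0.05, adjusted p = 0.505). Trex1 RNA per Tmem173 RNA was 0.968, 1.00 and 0.951 in exposed libraries, against 1.67, 1.78 and 1.65 in untreated libraries.

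**Figure D3:**
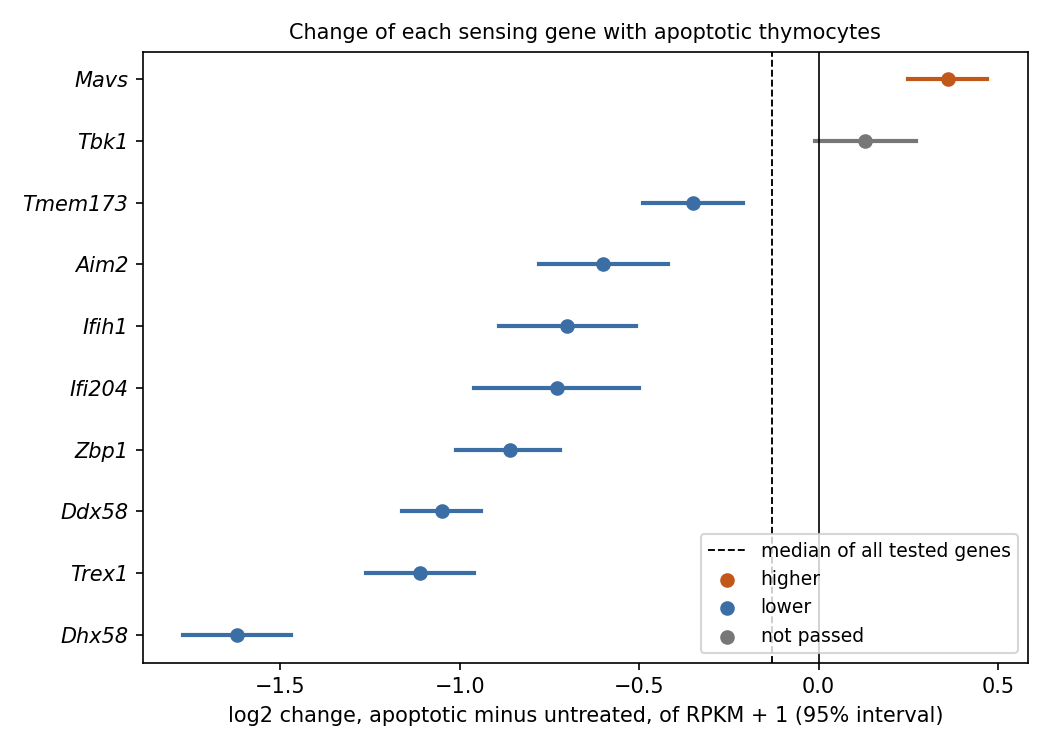
Log2 change of RPKM + 1, exposed (apoptotic) minus untreated, for each sensing gene with its 95% interval from limma. Dhx58 lies lowest at -1.62, Mavs highest at 0.36, and the dashed line marks the median of all tested genes at -0.13.

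The intervals of the log2 change set Dhx58 apart, while those of the other lower genes formed a chain of overlaps. That of Dhx58 (-1.77 to -1.47) did not overlap with that of any other of the 10. Trex1 (-1.26 to -0.96), Ddx58 (-1.16 to -0.94) and Zbp1 (-1.01 to -0.72) overlapped with their neighbours, as did Ifi204 (-0.96 to -0.50), Ifih1 (-0.89 to -0.51) and Aim2 (-0.78 to -0.42). Tmem173 (-0.49 to -0.21) overlapped with Aim2 but not with Ifih1. Mavs (0.25 to 0.47) and Tbk1 (-0.01 to 0.27) overlapped with each other and lay above the other 8. The order depends in part on the 1 RPKM added before taking logs. With 0.1 added instead, the log2 change was -1.90 for Dhx58, -1.37 for Zbp1, -1.23 for Ddx58 and -1.18 for Trex1.

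By level in RPKM, the order in exposed macrophages was Tbk1 (37.6), Ifi204 (36.6), Mavs (18.0), Tmem173 (11.3), Trex1 (11.0), Aim2 (5.97), Ddx58 (3.33), Dhx58 (2.77), Ifih1 (2.58) and Zbp1 (0.864). In untreated macrophages it was Ifi204 (60.7), Tbk1 (34.1), Trex1 (24.8), Tmem173 (14.6), Mavs (13.8), Dhx58 (10.6), Aim2 (9.50), Ddx58 (7.97), Ifih1 (4.77) and Zbp1 (2.39). Among neighbours, the values of Tbk1 and Ifi204, of Tmem173 and Trex1, and of Dhx58 and Ifih1 overlapped in exposed libraries, and those of Tmem173 and Mavs in untreated libraries. Mavs thus ranked above Trex1 and Tmem173 in exposed libraries and below both in untreated libraries by the means.

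The surrounding pathway was described with 6 further lists of 100 genes, of which 90 were expressed highly enough to be tested. Of these, 18 were higher, 46 lower and 26 did not pass. After median-of-ratios scaling 24 were higher, 30 lower and 36 did not pass. Over all tested genes, 18.8% were higher and 46.0% lower, and after that scaling 31.9% were higher and 27.9% lower. These shares are the background for the counts of each list below. The median log2 change of the 90 genes was -0.17, close to the -0.13 of all tested genes.

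In the list of other DNA sensing and STING pathway genes, 5 of 28 tested were higher, 14 lower and 9 did not pass, with a median log2 change of -0.18 (6, 8 and 14 after median-of-ratios scaling). Mb21d1, the gene of cGAS, which makes the messenger that activates STING, had 1.96, 1.76 and 1.88 RPKM in exposed libraries, against 3.54, 3.51 and 3.17 RPKM in untreated libraries. It was low in every exposed library (log2 change -0.62, adjusted p = 1.81e-05). The PYHIN genes Mndal and Mnda also fell. Mndal averaged 6.02 RPKM in exposed and 25.1 RPKM in untreated libraries (log2 change -1.91, SE 0.111). Mnda averaged 7.81 RPKM in exposed and 26.3 RPKM in untreated libraries (log2 change -1.64, SE 0.0912). These paralogs share stretches of sequence, so the split of reads between them is uncertain. Among the genes that rose, Enpp1, whose enzyme breaks down the cGAS messenger outside cells, averaged 5.12 RPKM in exposed and 3.07 RPKM in untreated libraries (log2 change 0.59, adjusted p = 7.09e-06). Lrrc8a, a subunit of anion channels that can pass that messenger, averaged 6.89 RPKM in exposed and 4.06 RPKM in untreated libraries (log2 change 0.64, adjusted p = 2.63e-05), though 66.2% of its exon bases are also annotated to Gm28035. Zdhhc18, a palmitoyltransferase gene, averaged 16.0 RPKM in exposed and 8.12 RPKM in untreated libraries (log2 change 0.90, adjusted p = 1.67e-06).

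Of 20 tested genes in the list of other RNA sensing and MAVS pathway genes, 2 were higher, 11 lower and 7 did not pass, with a median log2 change of -0.19 (4, 8 and 8 after median-of-ratios scaling). Trim25, a ubiquitin ligase known for activating RIG-I, had 21.4, 22.1 and 22.3 RPKM in exposed libraries, against 35.6, 34.5 and 35.5 RPKM in untreated libraries. It fell (log2 change -0.66, adjusted p = 8.17e-07), as did Traf3, a ligase that links MAVS to TBK1, which averaged 3.20 RPKM in exposed and 6.90 RPKM in untreated libraries (log2 change -0.91, adjusted p = 4.01e-07). The antiviral zinc finger gene Zc3hav1 (log2 change -0.49), the helicase gene Ddx60 (-0.78) and Eif2ak2, the gene of the RNA-activated kinase PKR (-0.84), fell too, and Ddx60, at 0.611 RPKM in exposed and 1.76 RPKM in untreated libraries, was testable only through its untreated level. The pair that rose was Nlrx1, a mitochondrial NLR gene (log2 change 0.24, adjusted p = 0.00503), and Nlrc5, an activator of MHC class I genes (log2 change 0.18, adjusted p = 0.0172). The Nlrc5 call was lost without exposed replicate 1 (adjusted p = 0.0523) or without untreated replicate 3 (adjusted p = 0.0640).

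Downstream, 1 of 11 tested TBK1 partners and IRF genes was higher, 6 were lower and 4 did not pass, with a median log2 change of -0.25 (3, 4 and 4 after median-of-ratios scaling). Irf3, the factor that TBK1 phosphorylates, averaged 12.6 ± 0.361 RPKM in exposed and 13.1 ± 0.0643 RPKM in untreated libraries (SD, n = 3 each). Its change did not pass (log2 change -0.06, adjusted p = 0.264) and turned to 0.10 under both scalings. Irf7, the interferon-induced factor of the same family, had 2.75, 2.72 and 2.42 RPKM in exposed libraries, against a mean of 13.1 ± 0.140 RPKM in untreated libraries (SD, n = 3), and was low in each exposed library. Ikbke, the kinase most similar to TBK1, fell to a mean of 6.26 RPKM in exposed libraries, against 10.1 RPKM in untreated libraries (log2 change -0.61, adjusted p = 7.28e-06), so that its RNA per Tbk1 RNA was 0.158 to 0.182 in exposed and 0.285 to 0.301 in untreated libraries. The scaffold gene Tank (log2 change -0.68) and the ubiquitin-binding adaptor gene Optn (-0.48) were also lower. The gene that rose was Ikbkg, which encodes the IKK subunit NEMO, at 33.5, 32.9 and 32.5 RPKM in exposed libraries, against 9.42, 9.61 and 9.36 RPKM in untreated libraries (log2 change 1.70, adjusted p = 1.90e-09). It shares 418 of 8110 exon bases with G6pdx on the opposite strand, which averaged 129 RPKM in exposed and 70.9 RPKM in untreated libraries, and whether strand was used in counting is not given in the sources used here. Ifnb1, the interferon beta gene that both pathways switch on, was listed at 0 in the exposed libraries and at 0.109 to 0.134 RPKM in the untreated libraries, too low to be tested. Those untreated values rest on very few reads, 1 per library at the gene length that was searched for. Ifna2 and Ifna4 were listed at 0 in all 6 libraries.

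Nucleases other than Trex1 went both ways. Of 13 tested, 5 were higher, 3 lower and 5 did not pass, with a median log2 change of 0.09 (6, 2 and 5 after median-of-ratios scaling). Dnase2a, the lysosomal DNase that digests the DNA of engulfed cells, had 39.0, 41.6 and 43.3 RPKM in exposed libraries, against 33.9, 35.9 and 34.9 RPKM in untreated libraries. It rose slightly (log2 change 0.24, SE 0.0495, adjusted p = 0.00265). Rnaset2b, a lysosomal RNase gene with a near-identical copy in Rnaset2a, averaged 49.2 RPKM in exposed and 40.9 RPKM in untreated libraries (log2 change 0.26, adjusted p = 0.000721). Rnaset2a did not pass (log2 change 0.09, adjusted p = 0.538), and the split of reads between the copies is uncertain. Those that fell were Pld4, an endolysosomal exonuclease gene (log2 change -0.62, adjusted p = 4.79e-06), the RNA-editing enzyme gene Adar (log2 change -0.47, adjusted p = 1.53e-05) and Rnaseh2b, a subunit gene of the RNase that cuts RNA in DNA hybrids (log2 change -0.20, adjusted p = 0.0273). The Rnaseh2b call was lost under both scalings, without the filter, and without exposed replicate 3 (adjusted p = 0.0704), untreated replicate 2 (0.112) or untreated replicate 3 (0.0707).

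Partners of AIM2 and ZBP1 in cell death went both ways, with 4 of 10 tested higher, 5 lower and 1 not passed, and a median log2 change of -0.14 (4, 2 and 4 after median-of-ratios scaling). Pycard, the adaptor that joins AIM2 to caspase-1, averaged 26.4 RPKM in exposed and 29.4 RPKM in untreated libraries and did not pass (log2 change -0.15, adjusted p = 0.0795). However, Pycard passed as lower without untreated replicate 1 (adjusted p = 0.0296) and with a replicate block (adjusted p = 0.0178). Its log2 change turned to 0.02 under both scalings. Casp1 had 34.2, 35.0 and 28.9 RPKM in exposed libraries, against 55.7, 55.9 and 54.6 RPKM in untreated libraries (log2 change -0.75, adjusted p = 1.22e-05). Casp4, a caspase that binds bacterial lipopolysaccharide, also fell (log2 change -1.08). In contrast Il18, a cytokine that caspase-1 matures, averaged 10.4 RPKM in exposed and 6.11 RPKM in untreated libraries (log2 change 0.68, adjusted p = 1.05e-05). Il1b, the other cytokine it matures, did not reach 1 RPKM in 3 libraries and so was not tested. It had 0.0223 to 0.115 RPKM in exposed and 0.923 to 1.23 RPKM in untreated libraries. Mlkl, the pore-forming effector of necroptosis downstream of ZBP1 and RIPK3, had 12.2, 11.6 and 11.0 RPKM in exposed libraries, against 7.15, 7.74 and 7.11 RPKM in untreated libraries (log2 change 0.59, adjusted p = 1.48e-05). Ripk3 was slightly lower (log2 change -0.25, adjusted p = 0.00657), a call that both scalings ended (adjusted p = 0.188 and 0.192), and Gsdmd, the pore-forming target of caspase-1, was slightly higher (log2 change 0.20, adjusted p = 0.00414).

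Receptor and signalling genes for interferon, which raises many of the nucleic acid receptors, were lower in 7 of 8 cases with a median log2 change of -0.89, and 6 were lower and 1 higher after median-of-ratios scaling. Ifnar1, a chain of the type I interferon receptor, had 12.7, 13.3 and 14.1 RPKM in exposed libraries, against 29.3, 30.4 and 30.3 RPKM in untreated libraries (log2 change -1.11, adjusted p = 7.72e-08), and the other chain gene Ifnar2 was also lower (log2 change -0.40). Stat2, a factor this receptor activates, fell by 1.01 on the log2 scale. Usp18, an interferon-induced inhibitor of that receptor, fell by 1.83 on the same scale. The exception was the kinase gene Jak1 (log2 change 0.16, adjusted p = 0.00499). In the promoter windows of the 6 lists, the interferon response motif was present in 6 of 38 genes that were lower, 2 of 14 that were higher and 0 of 22 that did not pass. Over all genes with a promoter entry it was present in 1079 of 27025. Whether the motif goes with either direction was not tested.

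**Figure D4:**
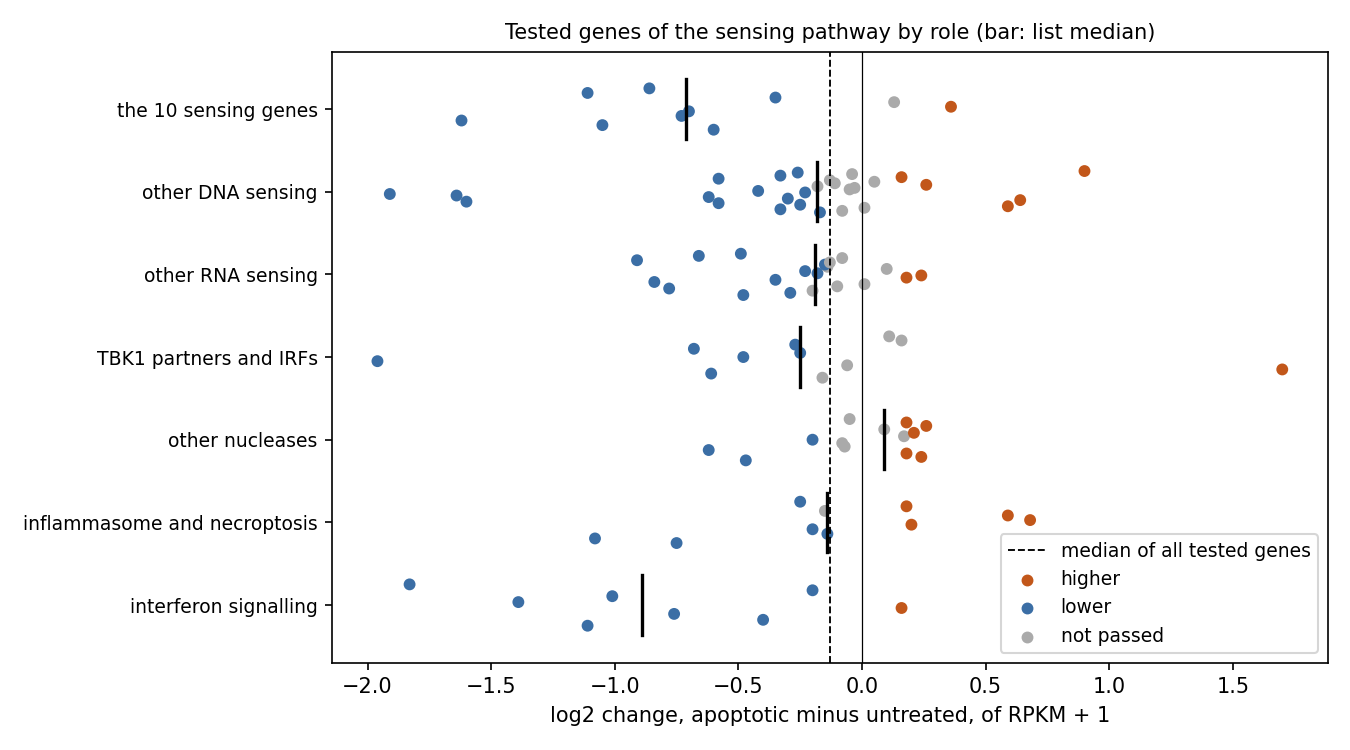
Log2 change of RPKM + 1, exposed (apoptotic) minus untreated, of the tested genes in each list (points, coloured by call), with a bar at each list's median and a dashed line at the median of all tested genes. The medians are -0.71 for the 10 sensing genes, -0.89 for interferon signalling and between -0.25 and 0.09 for the other lists.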

How the data were processed

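Poly(A) RNA of 3 exposed and 3 untreated macrophage cultures was sequenced as strand-specific TruSeq libraries, per the labels' protocols. The authors deposited RPKM values on mouse GRCm38 (mm10), per the file headers and the labels, with 1 column per library and 0 columns of no sample. Aligner, counting program and gene models are not given in the sources used here. Reads were recovered as the depths and gene lengths that make RPKM whole within 0.01 reads. With annotated lengths this held for 6 of the 10 genes and for 9683 of 18414 genes above 0, and for Tmem173, Ifi204, Trex1 and Tbk1 the length was searched for. For a gene of 1 kb, 1 read is worth 0.0386 to 0.0518 RPKM. Read numbers show counting error and not the spread between cultures, and they depend on how shared reads were assigned. Where the length was searched for, they also depend on that length.

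The test was limma 3.58.1 (R 4.3.3, Python 3.11.15 for tables) on log2(RPKM + 1), with an intensity trend, group as the only term and Benjamini-Hochberg adjustment, for genes that reached 1 RPKM in 3 or more libraries. Test and read recovery were tested on simulated data. SE and 95% intervals are moderated, and folds are ratios of mean RPKM. Alternatives were a pseudocount of 0.1, no filter, 2 scalings, no trend, a replicate block and leaving out each library. Genes, lists and tests were chosen with earlier results of these data known. All 156 list entries were found, 4 of them by identifier under an older symbol. From each list the 4 called genes with the smallest adjusted p and up to 3 called against the majority are named, except 1 gene that is not reported here. Mb21d1, Irf3, Tank, Eif2ak2, Pycard, Ripk3, Ifnar2, Ifnb1, Ifna2, Ifna4, Il1b, Atrip and G6pdx were chosen after their values were seen.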

Additional observations from a re-analysis of the deposited data

How the results depend on the processing

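Over 12 alternatives, 114 of the 117 recomputed changes of the 10 sensing genes kept their direction and their side of the threshold, and the other 3 were Tbk1, which passed as higher without exposed replicate 3 and under median-of-ratios and upper-quartile scaling (log2 change 0.30, adjusted p = 0.00192 under the last). Zbp1 could not be tested without any of the untreated libraries, since it then missed the filter. Median-of-ratios and upper-quartile scaling gave 2 sensing genes higher each, 30 pathway genes lower each, 3234 and 3280 of all genes higher and 2832 and 2814 lower. Leaving out each library gave 1 to 2 sensing genes higher, with 2 only without exposed replicate 3. Irf3 turned to 0.10 under both scalings (adjusted p = 0.0785 and 0.0705), and Pycard to 0.02 (0.852 and 0.815). The cause was not tested. Deviations from the group means correlated at 0.197, -0.031 and -0.162 between same-numbered libraries, and exposed replicate 1 alone correlated best with its own number. With 3 libraries a group, these correlations cannot decide whether the replicate numbers pair the libraries. With the replicate block 1904 genes were higher and 4627 lower, the 10 sensing genes gave 8 lower and 1 higher, and Pycard passed as lower (log2 change -0.15, adjusted p = 0.0178). Depth limits Zbp1 most, with 64 reads in its lowest library.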

Other observations

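Among the exposed libraries, replicate 1 was the highest and replicate 3 the lowest for Aim2, Ifi204, Ifih1 and Tbk1, and the opposite held for Tmem173. The same was seen in 36 of the 90 tested pathway genes (40.0%) and in 25.3% of all tested genes, with the opposite in 26.7% and 30.6%. For example, Eif2ak2 had 7.26, 6.62 and 5.43 RPKM in exposed libraries, Mndal 7.26, 5.92 and 4.88 RPKM and Tank 5.53, 4.67 and 3.61 RPKM, while the untreated libraries of Tank lay between 7.69 and 8.11 RPKM. The pattern was noticed after the values were seen, and its source was not tested.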
